A study of Rattus norvegicus with 6 samples.

Results

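The 5 microRNAs (miRNAs) described here, miR-143-3p, miR-145-5p, miR-199a-5p, miR-199a-3p and miR-214-3p, are known for their expression in smooth muscle, fibroblasts and other mesenchymal cells. They were chosen by name for that role and are 5 of the 728 mature rat miRNA probe sets on the array. They were measured in cardiac stem cells (CSCs), cultured cells isolated from hearts of Sprague Dawley rats aged 4 weeks. CSCs of the exosome group grew for 3 days in medium supplemented with exosomes, which are small vesicles released by cells, here by mesenchymal stem cells of bone marrow at passage 4. CSCs of the untreated group received none, and each group was measured on 3 arrays. Exosomes were precipitated with a commercial reagent, and none of the samples were cells given vesicle-free precipitate. Nothing in the labels ties the arrays to separate cultures, and the p-values therefore reflect array-to-array spread that could be technical.

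A miRNA is cut from a hairpin precursor and represses messenger RNAs that pair with its seed, bases 2 to 8. miR-143 and miR-145 are made from 1 host transcript, Carmn, and are abundant in vascular smooth muscle, where in mice they promote the contractile state and repress transcription factors of the dedifferentiated state. miR-199a and miR-214 come from a transcript antisense to the dynamin gene Dnm3, which in mice is driven by the mesenchymal transcription factor Twist1, and both are expressed in fibroblasts and developing skeleton and heart. The mature sequences are shown to set the members apart, since no seed, in capitals, is shared between them (RefSeq, GRCr8), each with its probe set.
miR-143-3p (MIMAT0000849_st): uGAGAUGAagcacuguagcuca
miR-145-5p (MIMAT0000851_st): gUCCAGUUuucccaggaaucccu
miR-199a-5p (MIMAT0000872_st): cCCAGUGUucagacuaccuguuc
miR-199a-3p (MIMAT0004738_st): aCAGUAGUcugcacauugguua
miR-214-3p (MIMAT0000885_st): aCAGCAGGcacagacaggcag

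Each of the 5 names was matched to 1 mature sequence. Among the 693 mature rat miRNA names annotated in that table, 0 others carry any of the 5 seeds. The rat hairpin Mir761 contains the bases of the miR-214-3p seed, but no mature arm of it is annotated there. It was therefore outside this count, and the seed may not be unique in rat. The closest seeds within the set were those of miR-199a-3p and miR-214-3p, identical at 5 of 7 positions. Whole members had little in common: the longest run of bases shared by any pair was 5. GC content ran from 40.9% in miR-199a-3p to 61.9% in miR-214-3p. With other rat miRNAs of the table the longest shared run was 10 bases, between miR-199a-5p and miR-743b-5p, whose own probe set is not named in the files.

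On GRCr8, miR-143-3p lies at chr18:57371373-57371394 and miR-145-5p at chr18:57370033-57370055, both on the minus strand. Their hairpin genes Mir143 and Mir145 are separated by 1278 bases, and both lie inside the long non-coding RNA gene Carmn, which has the same strand. miR-199a-5p (chr13:77116255-77116277), miR-199a-3p (chr13:77116294-77116315) and miR-214-3p (chr13:77121713-77121733) are on the plus strand inside Dnm3, whose own strand is minus. Mir199a2 and Mir214 are 5310 bases apart, and Mir3120 overlaps Mir214 on the opposite strand. The hairpins are given to show which arm each measured miRNA occupies, with both annotated mature arms in capitals. In Mir143 the member is the second arm, in Mir145 the first and in Mir214 the second.
Mir143: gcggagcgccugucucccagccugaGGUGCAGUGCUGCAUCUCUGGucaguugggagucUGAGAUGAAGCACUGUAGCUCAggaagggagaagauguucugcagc
Mir145: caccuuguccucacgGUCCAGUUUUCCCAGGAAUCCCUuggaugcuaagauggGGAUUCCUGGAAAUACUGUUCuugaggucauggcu
Mir214: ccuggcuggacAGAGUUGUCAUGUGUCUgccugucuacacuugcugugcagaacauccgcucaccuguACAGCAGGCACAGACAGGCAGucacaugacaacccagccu
The opposite arms and the hairpin probe sets on the array carry accessions that the files and tables used here do not pair with these names, and their values are not given.

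All values below are log2 signals as deposited, so a difference of 1 is a doubling of signal. On that scale the value table ran from -0.16 to 15.43 and the mature probe sets reached 14.04. The number of arrays limits the precision. Untreated replicate 1 had the lowest of the 6 signals for 4 of the 5 members, so differences are also given without it. Over the 171 mature probe sets with a 6-array mean of at least 5, it was lowest for 38.0% and untreated replicate 3 for 43.9%. Of the 30 with means between the lowest and the highest member, untreated replicate 1 was lowest for 6 and untreated replicate 3 for 20. Untreated replicate 1 was picked from the members' own values, so group separation without it follows partly from the choice and is no evidence of a difference. Shares over all mature probe sets without that array are not fully alike, since their values did not pick it. Bright probe sets as a whole lay higher in the exosome group: the median difference was 0.39 over the 171 mature probe sets whose 6-array mean reached 5, and 0.082 over all 728. Centring each array on the median deviation of these bright probe sets, called bright centring below, moves every member's difference downwards, as given with each result.

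All 5 members were bright in cultured CSCs with and without exosomes. Their 6-array means lay between the 95.1 and 99.0 percentiles of the 728 mature probe sets, with miR-145-5p at rank 7 and miR-143-3p at rank 19 by signal. Probe sets bind with different strength, so these positions describe brightness and do not order the miRNAs by abundance. In bulk RNA, fewer cells of a type and less RNA per cell cannot be told apart. Marker miRNAs of heart muscle, endothelium, blood, epithelium, nerve and liver are not paired with names in the files and tables used here, so the labelled cell type was not checked against them.

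After exosome treatment none of the 5 miRNAs passed the test: with limma and Benjamini-Hochberg adjustment over all 728 mature miRNAs, 0 of 5 members had an adjusted p under 0.05, where the share over all mature miRNAs was 0%. None of the 5 had an unadjusted p under 0.05 either, which 106 of the 728 had (14.6%). Of these 106, 88 were higher and 18 lower with exosomes, a split that was 36 and 32 after quantile normalization and 17 and 146 with bright centring. The signals of the 2 groups overlapped for all 5 members, whereas 19.6% of the mature probe sets had groups that did not overlap. The fitted differences, exosome minus untreated, ran from -0.15 for miR-145-5p to 0.093 for miR-214-3p. Their 95% intervals, converted to folds, together spanned 0.65 to 1.68, so doublings and halvings lay outside the interval of each member on this scale.

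miR-145-5p, which in mouse smooth muscle represses the pluripotency factor Klf4, had signals of 13.21, 13.66 and 13.67 in untreated replicates 1, 2 and 3, and 13.34, 13.33 and 13.43 in the exosome replicates. The exosome arrays therefore lay within the span of the untreated arrays, between 1 low and 2 high values. The difference was -0.15 ± 0.17 (SE), or 0.90-fold with a 95% interval of 0.68 to 1.19 (limma adjusted p = 0.76). Without untreated replicate 1, which was left out because it was low for these miRNAs, all 3 exosome arrays lay below both remaining untreated arrays. The difference was then -0.30 (limma adjusted p = 0.43). With that array left out, 6.46% of the mature probe sets lay below in the same way and 30.1% did not overlap in either direction. With bright centring the groups did not overlap either, at a difference of -0.53 (limma unadjusted p = 0.030, adjusted p = 0.20), but on that scale 29.9% of the mature probe sets lay below on all 3 exosome arrays and 33.8% did not overlap.

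miR-143-3p, the partner of miR-145 in the Carmn transcript, had 12.39, 13.02 and 13.04 in untreated replicates 1, 2 and 3, and 12.70, 12.75 and 12.82 with exosomes. The arrangement was that of miR-145-5p, with 3 close exosome values between the low and the high untreated ones. The difference was -0.061 ± 0.20 (SE), or 0.96-fold with a 95% interval of 0.68 to 1.35 (limma adjusted p = 0.93). It was -0.27 without untreated replicate 1 (limma adjusted p = 0.45), where the groups did not overlap, as for 30.1% of the mature probe sets, and -0.44 with bright centring (limma adjusted p = 0.26). Without untreated replicate 2 or 3 its sign turned, to 0.039 and 0.053.

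miR-199a-5p, which in rat cardiac myocytes represses the hypoxia factor Hif1a, had 10.64, 11.54 and 11.26 in the untreated replicates and 11.33, 11.39 and 10.87 with exosomes. One array in each group was low, untreated replicate 1 and exosome replicate 3, and the others overlapped. The difference was 0.050 ± 0.27 (SE), with a 95% fold interval of 0.65 to 1.64 (limma adjusted p = 0.96). Its sign was not stable: without untreated replicate 1 it was -0.20 (adjusted p = 0.77), after quantile normalization -0.22 (adjusted p = 0.82) and with bright centring -0.33 (adjusted p = 0.35). It was also negative without exosome replicate 1 or 2, at -0.018 and -0.049.

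miR-199a-3p, the other arm of the same hairpin, is known for promoting proliferation of rodent cardiomyocytes. It had 11.48, 11.86 and 11.34 in the untreated replicates and 11.73, 11.64 and 11.29 with exosomes. Here the third array of each group was lowest and untreated replicate 1 was not the low one. The difference was -0.0047 ± 0.20 (SE), with a 95% fold interval of 0.72 to 1.39 (limma adjusted p = 1.00). With bright centring the groups did not overlap, as for 33.8% of the mature probe sets, at -0.38 (limma unadjusted p = 0.049, adjusted p = 0.22), and after quantile normalization the difference was -0.29 (adjusted p = 0.63). Without exosome replicate 3 or untreated replicate 2 it was positive, at 0.13 and 0.14.

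miR-214-3p, which in mouse heart represses the sodium-calcium exchanger Slc8a1, had 10.90, 11.69 and 11.84 in the untreated replicates and 11.60, 11.72 and 11.39 with exosomes. Untreated replicate 1 was the lowest array by a wide margin, and the exosome arrays fell inside the untreated span. The difference was 0.093 ± 0.27 (SE), or 1.07-fold with a 95% interval of 0.68 to 1.68 (limma adjusted p = 0.93). It was -0.20 without untreated replicate 1 (adjusted p = 0.74), -0.18 after quantile normalization (adjusted p = 0.86) and -0.28 with bright centring (adjusted p = 0.44). In the other 12 of 15 alternatives it stayed positive, up to 0.28 without untreated replicate 3. Those changing only the treatment of dim signals, the variance model, the probe sets fitted or the replicate block left it at 0.093. They could not turn its sign.

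**Figure D1:**
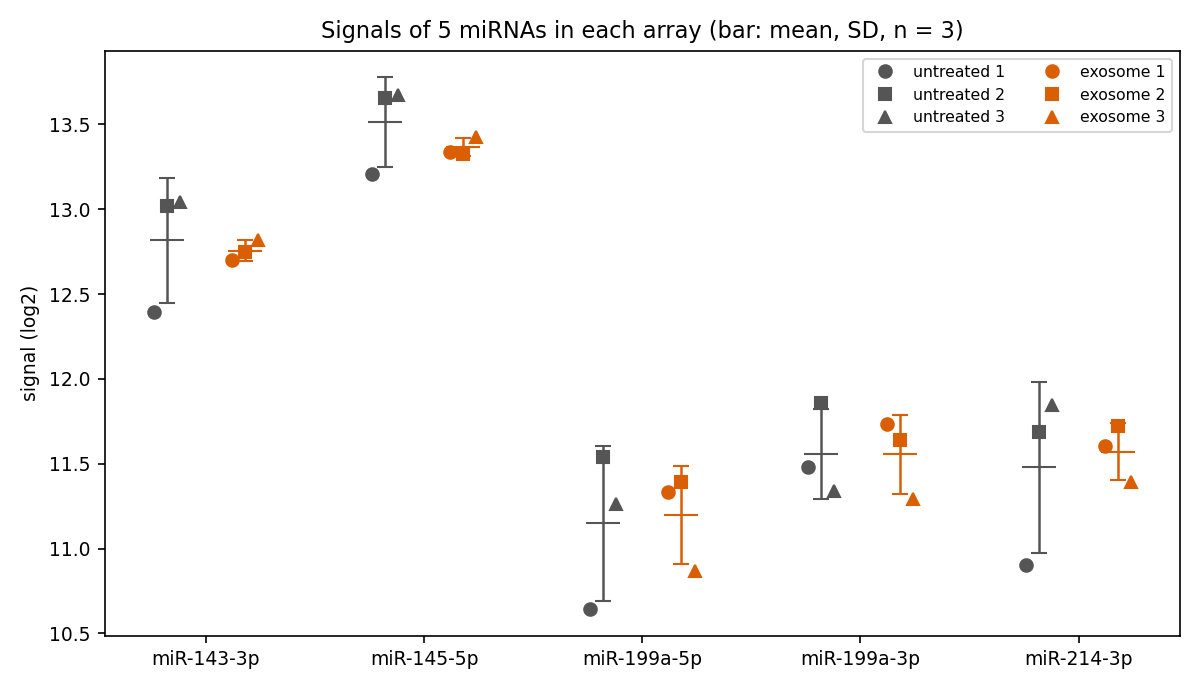
Log2 signal (vertical axis) of each miRNA in every array, untreated in grey and exosome in orange, with the replicate given by the symbol and the mean ± SD (n = 3) as bars. The groups overlap for all 5 miRNAs, and the 3 exosome arrays of miR-143-3p and miR-145-5p lie close together between a low untreated replicate 1 and higher untreated replicates 2 and 3.

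The exosome arrays were less spread than the untreated arrays for all 5 members. Between the lowest and highest exosome array, miR-145-5p differed by 0.098 and miR-143-3p by 0.12, against 0.46 and 0.65 in the untreated group. The ranges for miR-214-3p were 0.33 and 0.94, for miR-199a-5p 0.53 and 0.90, and for miR-199a-3p 0.44 and 0.51. A smaller range with exosomes was common at this brightness: it was found for 26 of the 30 mature probe sets with means between the lowest and the highest member (86.7%), members included, and for 52.7% of all 728. No test of the spread was made with 3 arrays per group.

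The differences of the members lay towards the lower end of those of other probe sets of like signal. Over the 25 other mature probe sets with means between the lowest and highest member the median difference was 0.20 and 22 of 25 were higher with exosomes, whereas the median of the 5 members was -0.0047 and 2 of 5 were higher. Among mature probe sets within 1 log2 of each member, 0 of 22 had a lower difference than miR-145-5p, and 3 of 22 had a lower one than miR-143-3p. The counts were 3 of 23 for miR-199a-3p, 4 of 24 for miR-199a-5p and 7 of 22 for miR-214-3p. These neighbours include other members: 1 each for miR-143-3p and miR-145-5p, and 2 each for miR-199a-5p, miR-199a-3p and miR-214-3p. Set against the median of these neighbours, the members lay lower by -0.24 for miR-145-5p, -0.19 for miR-199a-3p, -0.17 for miR-199a-5p, -0.16 for miR-143-3p and -0.083 for miR-214-3p. These positions are descriptions without a test, and neighbours are partly the same probe sets.

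**Figure D2:**
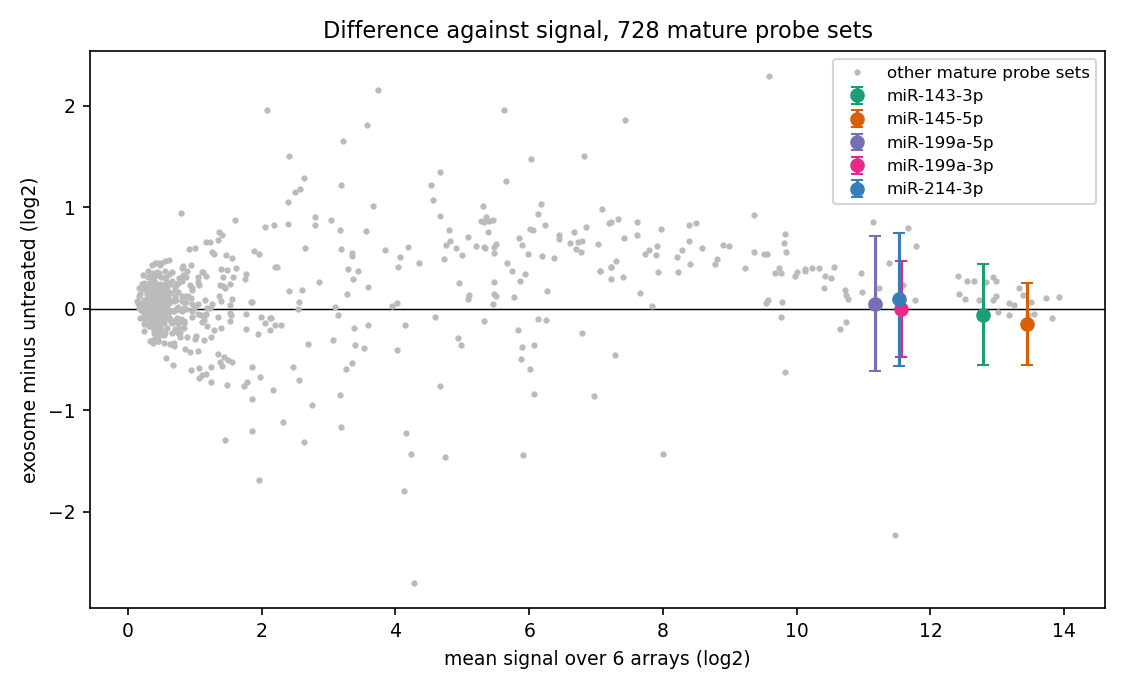
Difference between exosome and untreated arrays (log2, vertical axis) against the mean signal over the 6 arrays (log2, horizontal axis) for the 728 mature probe sets, with the 5 members in colour and their 95% intervals from limma. Of the 171 probe sets with means of 5 or more, 144 lie above 0, and of the 5 members 2 do. The intervals of all 5 members include 0, and only 106 of the 728 mature probe sets had an unadjusted limma p under 0.05.

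Array by array, 4 of the 5 members had their lowest value in untreated replicate 1, as had 65 of the 171 bright probe sets. The exception among the members was miR-199a-3p. In that array miR-214-3p deviated from its own 6-array mean by -0.62, and miR-199a-5p, miR-143-3p and miR-145-5p deviated by -0.53, -0.40 and -0.23. miR-199a-3p deviated by -0.075. The median of the 171 bright probe sets deviated by -0.25 in that array, and that of the 25 other probe sets of like signal by 0.096. The median of the 27 hybridization controls deviated by -0.32 in the same array, by 0.36 in untreated replicate 3 and by -0.10 to 0.06 in the other 4 arrays. The 22 spike-in controls had median deviations between -0.03 and 0.06 in all 6 arrays. The part of hybridization in the members' values was not tested.

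In untreated replicate 3 the deviations of miR-143-3p, miR-145-5p and miR-214-3p were 0.26, 0.23 and 0.32, while miR-199a-3p deviated by -0.22. The median of the 171 bright probe sets deviated by -0.24 in that array, so these 3 members were high where most bright miRNAs were low. In exosome replicate 3, miR-199a-5p and miR-199a-3p deviated by -0.31 and -0.26, whereas miR-143-3p and miR-145-5p were near their means at 0.033 and -0.013.

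**Figure D3:**
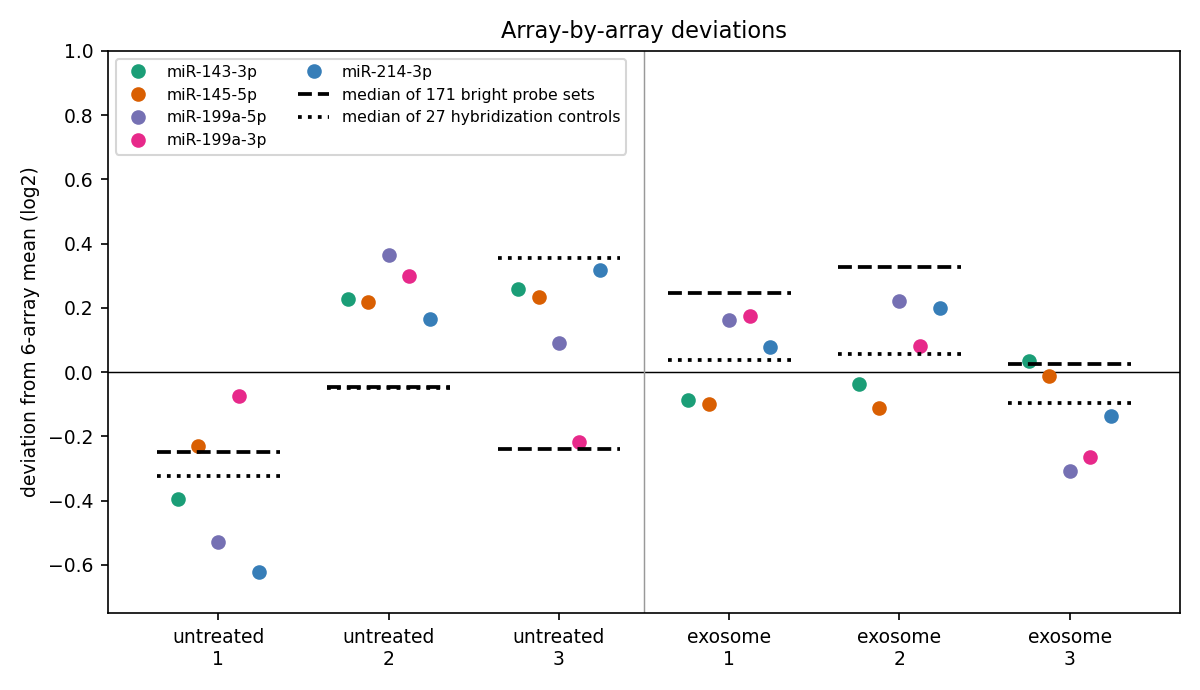
Deviation of each miRNA from its own 6-array mean (log2, vertical axis) in each array, with the medians of 171 bright mature probe sets (dashed) and of 27 hybridization controls (dotted). Untreated replicate 1 is low for 4 miRNAs, the bright probe sets and the hybridization controls, and miR-199a-3p departs from the others in untreated replicate 3.

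Ratios within an array cancel a factor common to all probe sets, and the 10 ratios between members were compared between groups. The smallest two-sided p that an exact permutation test of 3 against 3 arrays allows is 0.1, and the smallest found was 0.2 (exact permutation; Benjamini-Hochberg adjusted p = 0.9 for all 10 pairs). The group differences ran from -0.24 for miR-145-5p against miR-214-3p to 0.088 for miR-143-3p against miR-145-5p. For the 6 ratios of a Carmn miRNA to a Dnm3 locus miRNA, all 6 differences were negative on the deposited scale and positive after quantile normalization, so no direction is given for them.

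The ratio of miR-143-3p to miR-145-5p was the steadiest of the 10. It was -0.82, -0.64 and -0.63 log2 in untreated replicates 1, 2 and 3 and -0.64, -0.58 and -0.61 in the exosome replicates, with an SD of 0.085 over all 6 arrays. Apart from untreated replicate 1, the values lay close together. The levels of these probe sets cannot be ranked against each other, and only the constancy of the ratio is described.

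The arms of the miR-199a hairpin moved apart more. The ratio of miR-199a-5p to miR-199a-3p was -0.84, -0.32 and -0.077 in the untreated replicates and -0.40, -0.24 and -0.43 with exosomes, an SD of 0.26 over the 6 arrays. The group means of this ratio were -0.41 ± 0.39 (SD, n = 3) without and -0.36 ± 0.10 (SD, n = 3) with exosomes (exact permutation p = 0.9). The ratio of miR-199a-3p to miR-214-3p, from hairpins of the same cluster, was the least steady, from 0.58 in untreated replicate 1 to -0.50 in untreated replicate 3 (SD 0.36 over 6 arrays), and in the exosome arrays it kept between -0.095 and 0.13.

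**Figure D4:**
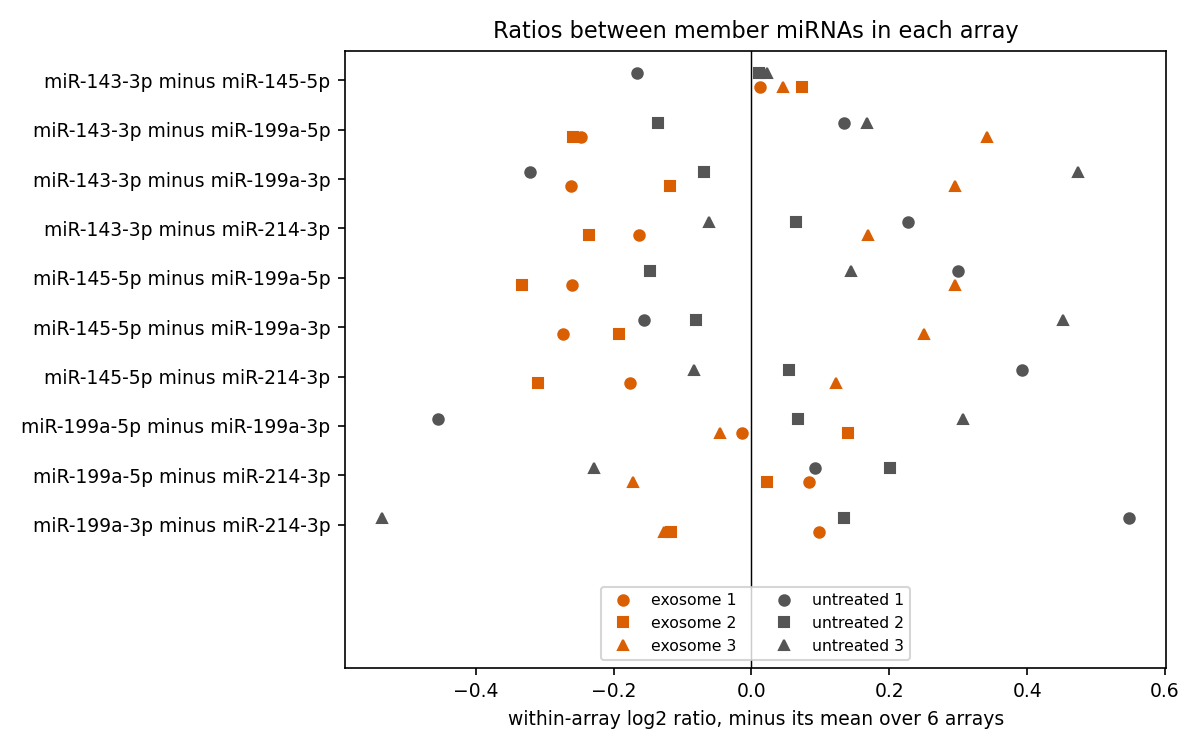
Log2 ratio between each pair of members within an array, minus the mean of that ratio over the 6 arrays (horizontal axis), with untreated arrays in grey, exosome arrays in orange and the replicate as symbol. Points of the miR-143-3p to miR-145-5p ratio are the most tightly grouped, and the widest spread is that of miR-199a-3p to miR-214-3p in the untreated arrays.

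Likeness of pattern was measured as Pearson's r over the 6 arrays against the 170 other bright mature probe sets, as a description, since all points share arrays and scaling. miR-145-5p was second of 170 for miR-143-3p and miR-143-3p was second for miR-145-5p (r = 0.95), each behind a different probe set that the files do not name. miR-214-3p was second of 170 for miR-199a-5p (r = 0.88), while miR-199a-5p came at place 7 for miR-214-3p. Likeness did not follow the locus throughout. Across loci, miR-143-3p had r = 0.85 with miR-214-3p and 0.69 with miR-199a-5p. Within the Dnm3 locus, miR-199a-3p had r = 0.24 with miR-214-3p. For miR-199a-3p the 3 most similar probe sets are unnamed (r = 0.87 to 0.91), and its own opposite arm miR-199a-5p came at place 16 (r = 0.67). Its r with miR-143-3p was 0.057 and with miR-145-5p 0.040.

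The authors' deposited table of 22 differential miRNAs contains 0 of the 5 members. Their table of predicted targets covers the same number of miRNAs and also holds 0 of the 5.

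**Figure D5:**
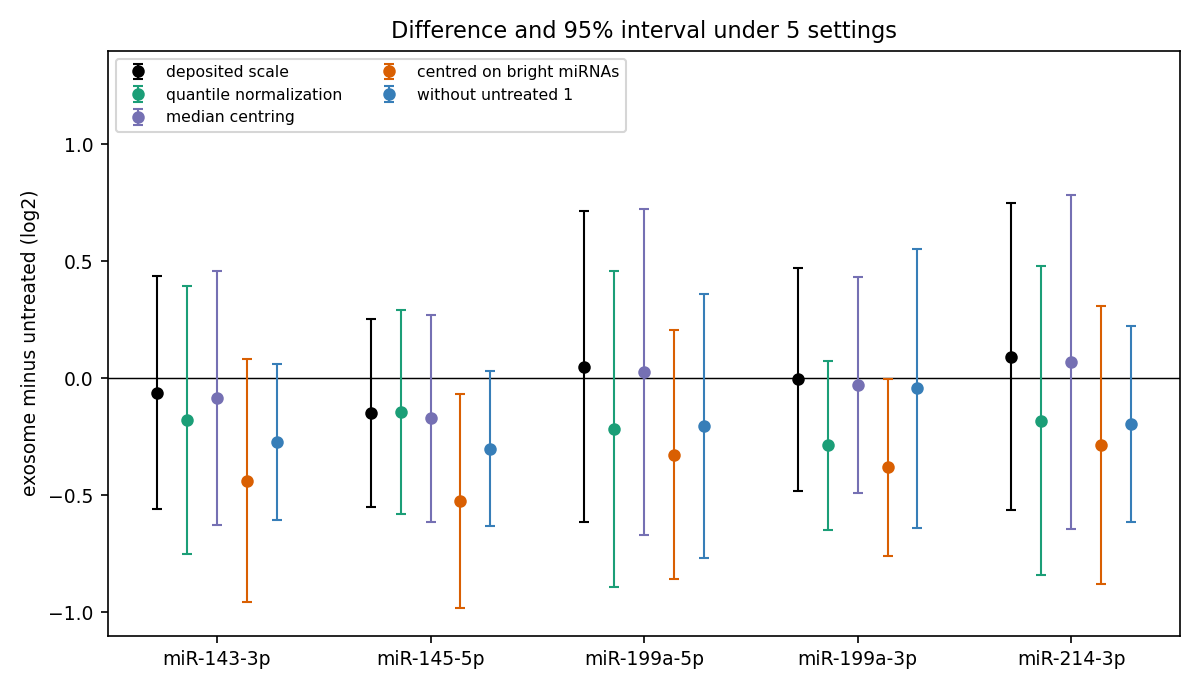
Difference between exosome and untreated arrays (log2, vertical axis) with its 95% interval from limma for each miRNA under 5 settings: the deposited scale, quantile normalization, median centring, centring on bright probe sets, and leaving out untreated replicate 1. The interval excludes 0 only with centring on bright probe sets, for miR-145-5p and miR-199a-3p, and neither passes adjustment there.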

How the data were processed

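Total RNA (1 ug per sample, Trizol) was biotin-labelled (FlashTag) and hybridized to Affymetrix miRNA arrays, per the labels' protocols. The deposited values are log2 signals per probe set, per the authors' note sheet. Per the submitters' processing notes Expression Console and MAS5 were used, whereas the authors' column headers name RMA, and which made the values is not settled here. RMA-type normalization reduces an overall change. Each of the 6 value columns is headed by its sample, and the groups come from the sample titles.

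Differences were fitted with limma (lmFit and eBayes, version 3.58.1 in R 4.3.3) over 728 mature probe sets, and p-values were adjusted by Benjamini-Hochberg (threshold 0.05). Hairpin and control probe sets were left out of the fit. Ratios between members were tested with exact permutation in Python 3.11.15 (numpy 2.4.6, scipy 1.17.1, pandas 2.3.3), and figures used matplotlib 3.10.9. Both tests were checked on simulated data. Alternatives changed the scaling (quantile, 2 centrings), the treatment of dim signals (a filter, a floor of 4), the variance model, the probe sets fitted, the replicate block or the arrays kept.

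The members, lists and alternatives were chosen with earlier results of these data known. Named are the 5 members, other probe sets of their hairpins, miRNAs with a shared seed, the 3 probe sets most like each member, and lists of other smooth muscle, fibroblast and cell type marker miRNAs. The lists have 0 members that could be described, because the accessions of the array are not paired with their names in the files and tables used, so they and the hairpin comparison were not run. Member names come from the accessions given with the selection, and were used to find the RefSeq sequences and gene positions (GRCr8).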

Additional observations from a re-analysis of the deposited data

How the results depend on the processing

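No member had an adjusted p under 0.05 under any of the 15 alternatives, where limma's adjusted p ran from 0.20 to 1.00 over the 5 miRNAs. miR-145-5p was lower with exosomes in all 15, between -0.53 and -0.069 log2. The filter, the floor, the variance models, the fit over all probe sets and the replicate block left every member's difference unchanged. The sign for miR-145-5p could therefore turn only with the scaling or the arrays kept. Quantile normalization turned miR-199a-5p to -0.22 and miR-214-3p to -0.18, and centring on bright probe sets to -0.33 and -0.28. Within-array ratios turned too: after quantile normalization the group differences were -0.035 for miR-143-3p to miR-145-5p, and for miR-143-3p to miR-199a-5p, miR-199a-3p and miR-214-3p 0.038, 0.11 and 0.0023, and for miR-145-5p to the same 3 they were 0.073, 0.14 and 0.037. Leaving out 1 array at a time gave ranges of -0.27 to 0.053 for miR-143-3p, -0.30 to -0.069 for miR-145-5p, -0.20 to 0.24 for miR-199a-5p, -0.11 to 0.14 for miR-199a-3p and -0.20 to 0.28 for miR-214-3p. For the ratios these ranges were -0.23 to 0.17 for miR-143-3p to miR-199a-3p, -0.31 to 0.046 for miR-145-5p to miR-199a-3p, -0.16 to 0.22 for miR-199a-5p to miR-199a-3p, -0.17 to 0.046 for miR-199a-5p to miR-214-3p and -0.39 to 0.15 for miR-199a-3p to miR-214-3p. The number of mature miRNAs with an unadjusted limma p under 0.05 was 106 of 728. It was 58 of 171 among those with a mean of at least 5 and 70 of 219 with a floor of 4. Of 728, it was 68 after quantile normalization, 163 with bright centring and 38 to 145 leaving out 1 array. Those with an adjusted p under 0.05 were 0 to 23 leaving out 1 array, 23 without exosome replicate 3 and 1 without untreated replicate 1. The cause of these changes was not tested, and fewer miRNAs were fitted with the filter and the floor.

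Deviations from the group means in same-numbered arrays had r = 0.035, 0.32 and 0.29 over mature miRNAs. Exosome replicates 2 and 3 correlated best with the untreated array of their own number, and exosome replicate 1 with untreated replicate 2 (r = 0.24). Whether the numbers pair the samples is not settled by this, since each deviation rests on a mean of only 3 arrays. With the number as a replicate block limma gave 0 miRNAs with an adjusted p under 0.05 and 111 unadjusted, and miR-145-5p differed by -0.15 (adjusted p = 0.76). The comparison of hairpin probe sets was not run. The 3 arrays per group limit the precision. The intervals of the members reflect array-to-array spread that could be technical, so they do not bound the biological changes. Their limits also moved with the setting. The lower limit for miR-145-5p was -0.98 log2 with bright centring and -0.45 with an intensity trend in the variance model. The upper limit for miR-214-3p was 0.22 without untreated replicate 1 and 1.00 without untreated replicate 2.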
